A study of Drosophila melanogaster with 4 samples.

Results

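UDP-glycosyltransferases (Ugt genes) are enzymes that attach a sugar to small lipophilic molecules, and the 35 Ugt genes on the array were followed in Drosophila melanogaster larvae that overexpressed Gyc76C. The members were all genes whose single symbol in the platform annotation starts with Ugt and a digit. Each had 1 probe set, so they are 35 of the 11982 genes with a symbol of their own on the array, and they cover the 35 Ugt genes of the RefSeq gene table. They fall into 13 families by the number in the symbol, of which 7 hold 1 gene. The members were taken by name, without a filter on their values, though the choice was made with earlier results of these data known.

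The study measured whole larvae, grown at 25 °C to the third instar, on 1-colour Affymetrix arrays. In the experimental larvae the driver C564-Gal4 switched on UAS-Gyc76C, a receptor guanylate cyclase, and the labels place this overexpression in the fat body. In the control larvae the same driver switched on UAS-GFP. Both genotypes thus carry C564-Gal4 and a UAS transgene, and each has 2 arrays that the labels call biological replicas. The labels do not say how many larvae went into a sample. Because whole bodies were homogenized, fewer cells of a type and less RNA per cell cannot be told apart.

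Insect Ugt enzymes sit in the membrane of the endoplasmic reticulum and mainly use UDP-glucose as the sugar donor. The added sugar makes the acceptor water-soluble, so that transporters can export it. This is the conjugation step of detoxification, which follows oxidation by cytochrome P450 enzymes and runs beside conjugation by glutathione S-transferases. In flies the fat body, the midgut and the Malpighian tubules are the main organs of detoxification, and some Ugt genes are expressed in the olfactory organs. Several Ugt genes lie side by side in the genome.

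The overexpressed gene checks the labels. The brightest Gyc76C probe set, which the annotation shares with CG42637, had signals of 16050 and 20993 in Gyc76C larvae, against 1047 and 928 in GFP larvae (log2 fold change 4.22, SE 0.17, limma adjusted p = 5.79e-05). Signals are MAS5 values in arbitrary units, scaled to a trimmed mean of 500 on every array. Replicate arrays correlated at 0.968 for Gyc76C and 0.966 for GFP over 11261 tested probe sets, and arrays of different genotype at 0.88 to 0.91. Of the probe sets tested, 11.3% were higher and 13.3% were lower in Gyc76C larvae at an adjusted p under 0.05, and their median log2 fold change was -0.16.

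Of the 35 Ugt probe sets, 28 had a mean signal at or above 46.3, the 40th percentile of all probe sets, and were tested; 7 were dimmer. Of the 28, 11 were higher in Gyc76C larvae (39.3%, against 11.3% of all probe sets tested), 3 were lower (10.7%, against 13.3%) and 14 did not pass the threshold. The median log2 fold change of the 28 was 0.21, against -0.16 over all probe sets tested. Of the 11 that rose, 8 changed by at least 2-fold, as did the 3 that fell. The share of all probe sets tested that did so was not counted. Among the 8 were Ugt302E1 and Ugt35E1, which reached the filter only through Gyc76C larvae. The pair of Gyc76C arrays lay above the pair of GFP arrays for 14 of the 28 (26.9% of all probe sets tested) and below them for 9 (41.4% of all).

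**Figure D1:**
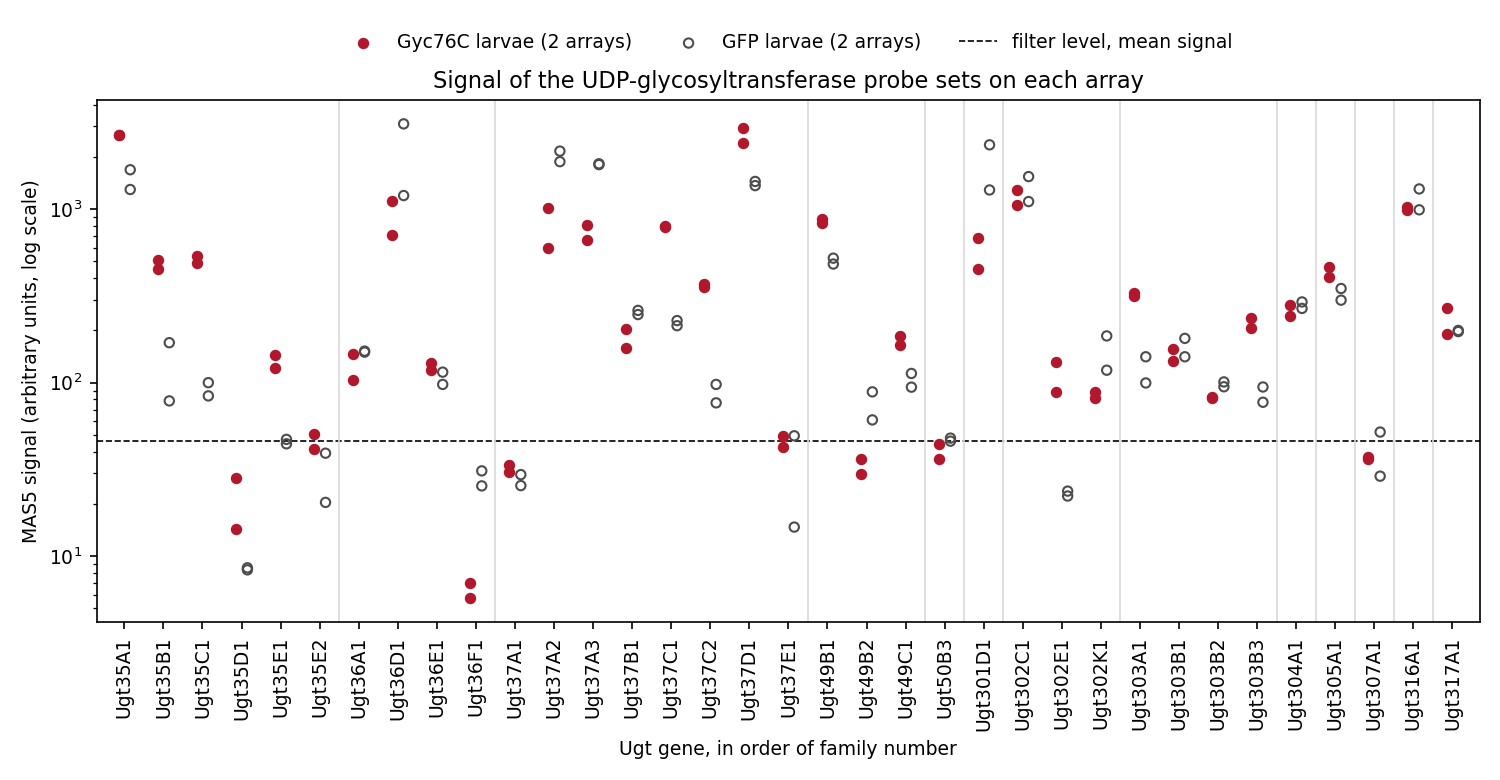
Signal of each Ugt probe set on a log scale, in order of family number, with filled points for the 2 Gyc76C arrays, open points for the 2 GFP arrays, and a dashed line at the mean signal of 46.3 that a probe set had to reach to be tested. Ugt35C1 and Ugt37C2 are clearly separated with Gyc76C above, while Ugt37A3 and Ugt301D1 are separated with Gyc76C below.

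How many members passed depended on single arrays and on the variance model. Of the Ugt probe sets 6 rose without Gyc76C replicate 1 (5.11% of all probe sets tested) and 7 without Gyc76C replicate 2 (6.68%). The number that fell was 3 in both, against 5.59% of all probe sets tested without replicate 1 and 10.9% without replicate 2. With a constant variance prior, that is, without a mean trend, 7 rose and 1 fell, against 5.43% and 5.59% of all. With every array centred on its median 12 rose and 3 fell, against 14.8% and 8.8% of all. With 2 arrays against 2, an exact two-sided permutation test of a single gene cannot go below p = 0.333, so the calls rest on the variance that limma shares across probe sets.

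The Ugt35 family was raised in each of its 4 tested members, where 11.3% of all probe sets tested were higher. Ugt35E1 reached the filter only through Gyc76C larvae. All 4 lie in the long run on chromosome arm 3R described below, so the count of that run includes them. Ugt35C1, also known as Ugt86Dd and linked to nicotine resistance in flies, had signals of 539 and 492 in Gyc76C larvae, against 100 and 83.9 in GFP larvae. It rose 5.61-fold, the largest measured log2 fold change of the 28 tested members (log2 fold change 2.49 with an SE of 0.21, limma adjusted p = 0.00074), and the groups did not overlap. The call held in each of 12 alternative settings, with log2 fold changes of 2.36 to 2.65.

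Ugt35B1, the gene first described as Ugt35b and known for expression in the antenna, had signals of 452 and 508 in Gyc76C larvae, against 170 and 78.5 in GFP larvae. The GFP arrays differed from each other by more than the Gyc76C arrays did, but both lay lower. Ugt35B1 rose 4.15-fold (log2 fold change 2.05 with an SE of 0.36, limma adjusted p = 0.00964), and the call ended with a constant variance prior (adjusted p = 0.0538).

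Ugt35A1, its neighbour in the genome, was bright in both genotypes, with signals of 2675 and 2678 in Gyc76C larvae, against 1689 and 1299 in GFP larvae. The rise was 1.81-fold (log2 fold change 0.85, SE 0.16, limma adjusted p = 0.012). It was not called without Gyc76C replicate 1 (adjusted p = 0.0705), without Gyc76C replicate 2 (0.0512) or with a constant variance prior (0.066).

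Ugt35E1 had signals of 121 and 145 in Gyc76C larvae, against 47.1 and 44.4 in GFP larvae, where it was close to the filter level. It rose at least 2.84-fold, with the GFP signal under 46.3 raised to that level (log2 fold change 1.54, SE 0.35, limma adjusted p = 0.0236). The call ended when either Gyc76C array was left out (adjusted p = 0.07 for replicate 1 and 0.0967 for replicate 2). The other members of the family, Ugt35E2 and Ugt35D1, were too dim to be tested. Ugt35E2 had 50.4 and 41.7 in Gyc76C larvae, against 39.2 and 20.4 in GFP larvae, and Ugt35D1 had 28.1 and 14.4 in Gyc76C larvae, against 8.33 and 8.56 in GFP larvae.

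The Ugt37 family, the largest with 8 genes, held members that changed in opposite directions. Of its 6 tested genes 3 rose (50%, against 11.3% of all probe sets tested), 2 fell (33.3%, against 13.3%) and 1 did not pass the threshold. Ugt37C1 had signals of 799 and 789 in Gyc76C larvae, against 213 and 228 in GFP larvae. The replicate arrays lay close together and the groups far apart, a 3.6-fold rise (log2 fold change 1.85, SE 0.15, limma adjusted p = 0.000793).

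Ugt37C2 had signals of 372 and 356 in Gyc76C larvae, against 76.5 and 97.7 in GFP larvae, and rose 4.21-fold (log2 fold change 2.07, SE 0.23, limma adjusted p = 0.0021). Ugt37C1 and Ugt37C2 share a subfamily letter but lie on different chromosome arms, 2R and 2L. Both were called in all 12 alternative settings.

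Ugt37D1, which lies in the same run of genes as Ugt37C2, had signals of 2954 and 2397 in Gyc76C larvae, against 1368 and 1446 in GFP larvae. It rose 1.89-fold (log2 fold change 0.92 with an SE of 0.15, limma adjusted p = 0.00745), and the call ended without Gyc76C replicate 1 (adjusted p = 0.0731) and with a constant variance prior (0.0522). Its probe set carries the suffix that marks probes shared by several transcripts, as do those of Ugt36E1 and Ugt50B3.

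Ugt37A2 and Ugt37A3, which are direct neighbours on chromosome arm 3R, both fell. Ugt37A3 had signals of 814 and 668 in Gyc76C larvae, against 1808 and 1828 in GFP larvae. It was 2.47-fold lower in Gyc76C larvae (log2 fold change -1.30, SE 0.15, limma adjusted p = 0.00235), a call that held in all 12 alternative settings. Ugt37A2 had signals of 1015 and 595 in Gyc76C larvae, against 1880 and 2163 in GFP larvae, and was 2.59-fold lower (log2 fold change -1.38, SE 0.25, limma adjusted p = 0.0112). The Gyc76C arrays of Ugt37A2 were spread more widely than those of Ugt37A3, and its call ended with a constant variance prior (adjusted p = 0.0639).

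The remaining Ugt37 genes did not pass or were not tested. Ugt37B1 had 203 and 159 in Gyc76C larvae, against 247 and 261 in GFP larvae (log2 fold change -0.50, 95% interval -1.01 to 0.01, limma adjusted p = 0.135). Ugt37A1, at 30.4 and 33.4 in Gyc76C larvae against 25.5 and 29.5 in GFP larvae, and Ugt37E1, at 42.7 and 49.4 in Gyc76C larvae against 14.7 and 49.4 in GFP larvae, were below the filter. Ugt37E1 overlapped between the groups.

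**Figure D2:**
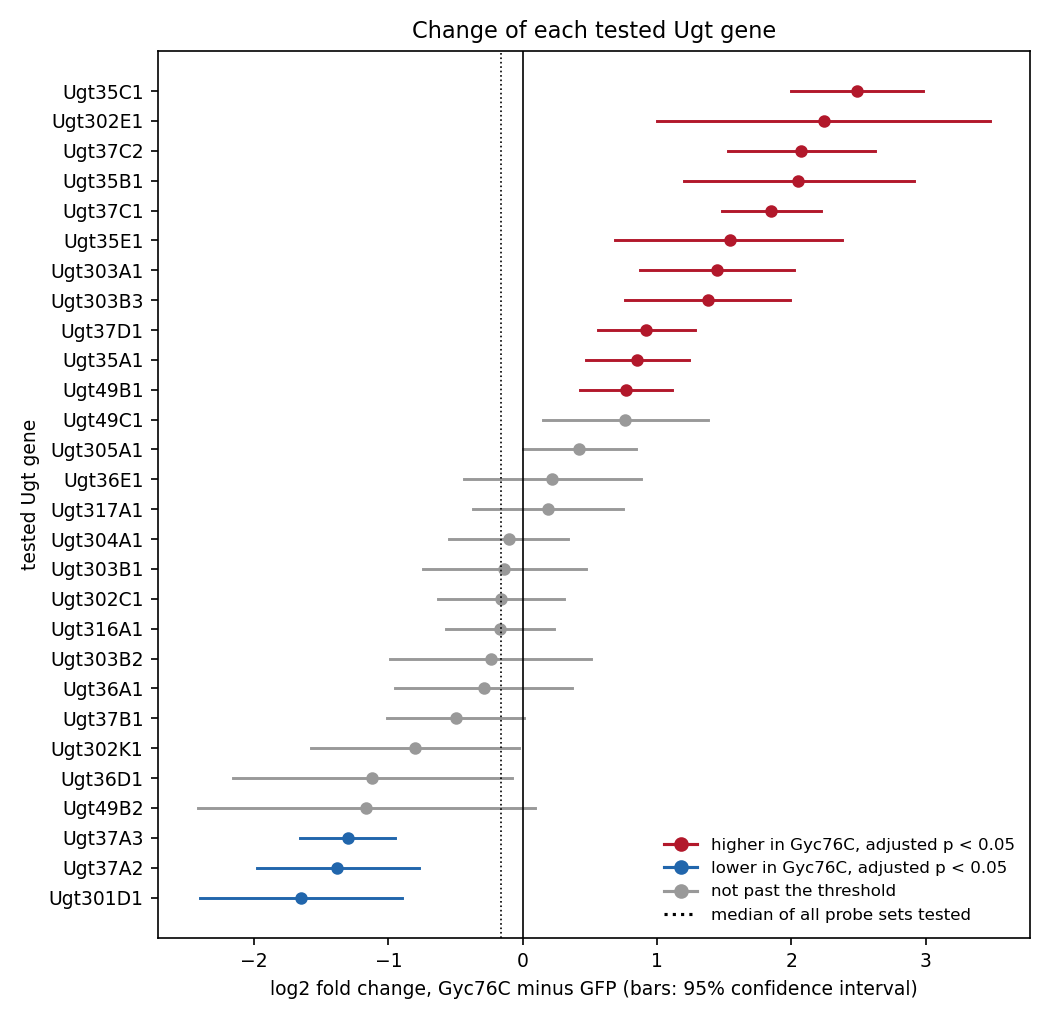
Log2 fold change of the 28 tested Ugt genes, Gyc76C minus GFP, with 95% confidence intervals from limma, and a dotted line at the median of all probe sets tested (-0.16). The 11 genes that rose run from Ugt35C1 at 2.49 to Ugt49B1 at 0.77, and the 3 that fell are Ugt37A3, Ugt37A2 and Ugt301D1 at -1.65.

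Among the families with numbers above 300, Ugt303A1, Ugt303B3 and Ugt302E1 rose. Ugt303A1 had signals of 330 and 315 in Gyc76C larvae, against 141 and 99.6 in GFP larvae, and rose 2.72-fold (log2 fold change 1.45, SE 0.24, limma adjusted p = 0.00821). The groups did not overlap, and the gene was called in all 12 alternative settings.

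Ugt303B3 had 207 and 236 in Gyc76C larvae, against 94.4 and 77.1 in GFP larvae, and rose 2.59-fold (log2 fold change 1.38, SE 0.26, limma adjusted p = 0.0116). Its call held in the 11 settings in which it was tested. Ugt303B1 and Ugt303B2, the 2 genes beside it, did not pass the threshold. Ugt303B1 had a log2 fold change of -0.14 (95% interval -0.74 to 0.47) with overlapping groups, a value that was 0.02 with median-centred arrays and 0.06 after quantile normalization. Ugt303B2 had -0.24 (95% interval -0.99 to 0.51), and whether Ugt303B3 differs from these 2 was not tested.

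Ugt302E1 had signals of 88.7 and 132 in Gyc76C larvae, against 22.2 and 23.7 in GFP larvae, where both arrays lay under the filter level. It was at least 2.34-fold higher in Gyc76C larvae (measured log2 fold change 2.24, SE 0.52, limma adjusted p = 0.0239). The call ended when either Gyc76C array was left out (adjusted p = 0.0617 for replicate 1 and 0.131 for replicate 2). Ugt302E1, Ugt35E1 and Ugt49B2 reached the filter only through the genotype in which they were brighter. Among the 25 tested Ugt probe sets with a mean of at least 46.3 in both genotypes 9 rose and 3 fell, against 11.5% and 13.8% of all such probe sets.

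The other Ugt302 genes did not pass. Ugt302C1, bright in both genotypes, had 1284 and 1062 in Gyc76C larvae, against 1542 and 1107 in GFP larvae (log2 fold change -0.16, 95% interval -0.63 to 0.31). Ugt302K1 had 88.5 and 81.4 in Gyc76C larvae, against 118 and 186 in GFP larvae. The Ugt302K1 arrays did not overlap, but the log2 fold change of -0.80 had a limma adjusted p of 0.116.

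Ugt301D1, the 1 member of its family, gave the largest fall. Its signals were 454 and 678 in Gyc76C larvae, against 1291 and 2351 in GFP larvae, 3.14-fold lower in Gyc76C larvae (log2 fold change -1.65, SE 0.31, limma adjusted p = 0.0126). Replicates were spread widely in both genotypes, and the call ended with a constant variance prior (adjusted p = 0.0679). Leaving out 1 array at a time gave log2 fold changes of -2.08 to -1.22.

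In the Ugt49 family, Ugt49B1 had 883 and 829 in Gyc76C larvae, against 522 and 483 in GFP larvae, and rose 1.7-fold (log2 fold change 0.77, SE 0.14, limma adjusted p = 0.0118). That call ended without Gyc76C replicate 1 (adjusted p = 0.113), without Gyc76C replicate 2 (0.06) and with a constant variance prior (0.0543). Ugt49C1, the gene next to it, had 164 and 187 in Gyc76C larvae, against 113 and 94.2 in GFP larvae. Its log2 fold change of 0.76 was about as large but less certain (SE 0.26, limma adjusted p = 0.0725), and it passed with median-centred arrays (adjusted p = 0.0434) and after quantile normalization (0.0344). Ugt49B2 had 36.1 and 29.6 in Gyc76C larvae, under the filter level, against 61 and 88.5 in GFP larvae (limma adjusted p = 0.149).

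Of the 3 tested members of the Ugt36 family 0 passed the threshold by limma, and 1, Ugt36D1, had an unadjusted p under 0.05. Ugt36D1 had signals of 709 and 1110 in Gyc76C larvae, against 1199 and 3105 in GFP larvae, and its log2 fold change of -1.12 had a 95% interval of -2.16 to -0.08 (limma adjusted p = 0.106). The 2 GFP arrays differed so much that the gene was called without GFP replicate 1 (log2 fold change -1.81, adjusted p = 0.000971) and had -0.43 at the other end of the range over left-out arrays. Ugt36A1, also known as Dot, had a log2 fold change of -0.29 (95% interval -0.95 to 0.37), and Ugt36E1 had 0.22 (95% interval -0.44 to 0.88). Ugt36F1 was below the filter, at 6.96 and 5.72 in Gyc76C larvae against 25.4 and 31 in GFP larvae.

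The families with 1 gene other than Ugt301 gave 0 calls by limma, with Ugt305A1 at an unadjusted p under 0.05. Ugt305A1 had 406 and 462 in Gyc76C larvae, against 349 and 299 in GFP larvae (log2 fold change 0.42, SE 0.18, limma adjusted p = 0.125). Ugt316A1 had a log2 fold change of -0.17 (95% interval -0.57 to 0.23), Ugt304A1 -0.10 (-0.55 to 0.34) and Ugt317A1 0.19 (-0.37 to 0.75). These 3 intervals leave out a 2-fold change in either direction. The Ugt304A1 value was 0.06 both with median-centred arrays and after quantile normalization. Ugt50B3 had 36.4 and 44.1 in Gyc76C larvae against 47.9 and 46 in GFP larvae, and Ugt307A1 had 37.2 and 36.1 in Gyc76C larvae against 51.9 and 28.9 in GFP larvae; both were below the filter.

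The order of the Ugt genes along the chromosomes, which the choice of members did not use, was taken from the RefSeq gene table. Counting genes with at most 10 other protein coding genes between them as neighbours, 23 of the 35 lie in 6 runs. The longest run, on chromosome arm 3R, holds 10 genes from Ugt35C1 to Ugt303A1, and the RefSeq table lists for each an older symbol that begins with Ugt86D. Of its 9 tested genes 6 rose (66.7%, against 11.3% of all probe sets tested) and the other 3 did not pass the threshold. Without Ugt302E1 and Ugt35E1, which reached the filter only through Gyc76C larvae, 4 of 7 rose (57.1%). Of all probe sets with a mean of at least 46.3 in both genotypes 11.5% rose. The 6 were Ugt35C1, Ugt302E1, Ugt35E1, Ugt35B1, Ugt35A1 and Ugt303A1, while Ugt302K1, Ugt302C1 and Ugt304A1 between them had negative log2 fold changes, of which that of Ugt304A1 was positive with centred arrays and after quantile normalization.

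In the shorter runs, differences between neighbours were not tested. In the run of Ugt37C2, Ugt37E1 and Ugt37D1 both tested genes rose, and in the run of Ugt37A2 and Ugt37A3 both fell. Ugt303B3 rose and the 2 genes beside it did not pass the threshold. Ugt49B1 passed it and Ugt49C1, with nearly the same log2 fold change, did not, and in the run of Ugt36F1, Ugt36D1 and Ugt36E1 neither tested gene passed the threshold. Of the 12 Ugt genes outside the runs 8 were tested, of which 1 rose (Ugt37C1) and 1 fell (Ugt301D1). These shares of 12.5% each are close to those of all probe sets tested, 11.3% higher and 13.3% lower. Genes of a run share sequence, and how far the probes of one detect the transcript of another was not tested.

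**Figure D3:**
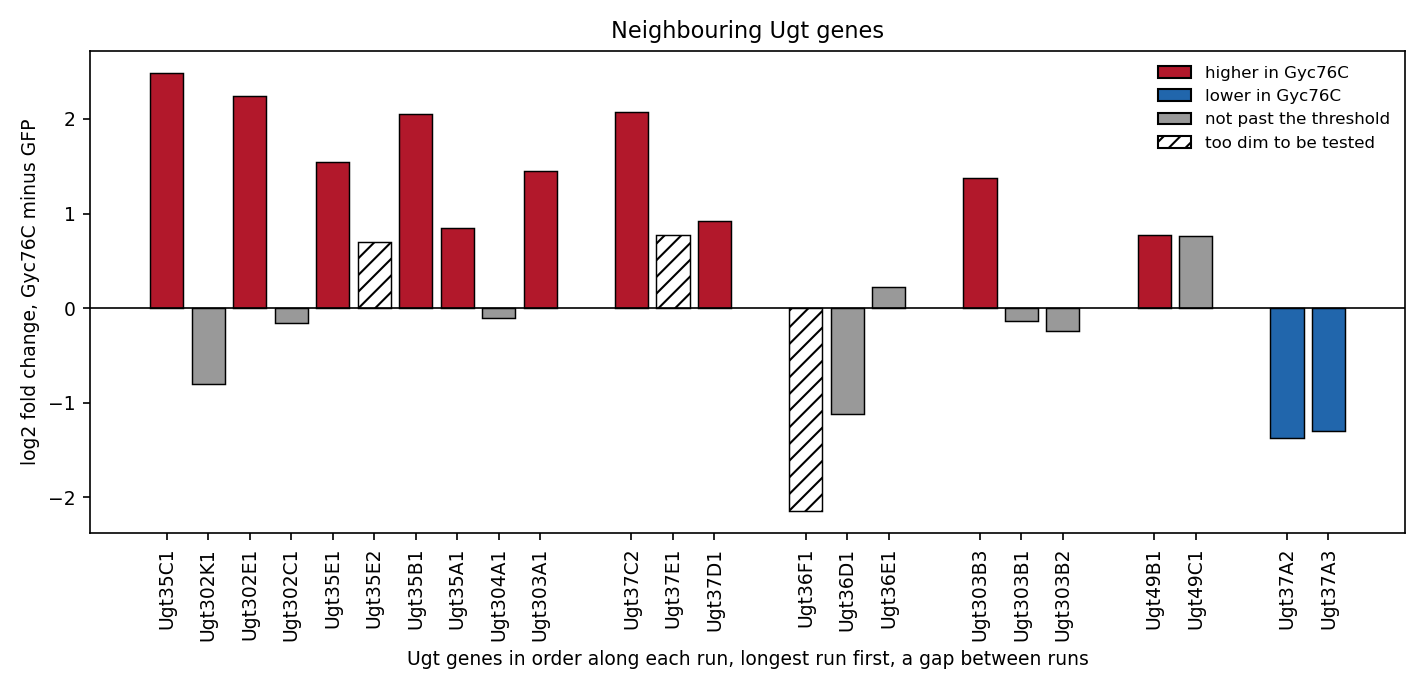
Log2 fold change of the 23 Ugt genes that lie in runs, in order along each run with the longest run first, a gap between runs and hatched bars for genes too dim to be tested. Red bars passed the threshold with Gyc76C above and blue bars with Gyc76C below; the long run at the left has 6 red bars, and the run of Ugt37A2 and Ugt37A3 at the right has 2 blue bars.

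Genes that make UDP-glucose, convert it or carry nucleotide sugars were compared as a list, each gene represented by its brightest probe set. Of 9 such genes tested 4 rose and 5 did not pass the threshold, with a median log2 fold change of 0.20, where 11.6% of all 9259 genes tested rose and 14% fell. The gene sgl, which encodes the UDP-glucose dehydrogenase and so uses UDP-glucose up, had 1994 and 1894 in Gyc76C larvae, against 693 and 1104 in GFP larvae (log2 fold change 1.15, limma adjusted p = 0.0137). Efr, a nucleotide sugar transporter gene, had a log2 fold change of 0.88 and the galactokinase gene Galk 0.76, and Galt, named beside these after its value was seen, had 0.53. The 4 calls depended on single Gyc76C arrays. They ended with a constant variance prior, where 0 of the 9 were higher, against 5.43% of all probe sets tested.

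UGP, whose product makes UDP-glucose, was dim, at 44.2 and 43.5 in Gyc76C larvae against 42.8 and 65.5 in GFP larvae, and did not pass the threshold (limma adjusted p = 0.737). Among 6 tested genes of other enzymes that use UDP-glucose 2 rose (33.3%, against 11.6% of all genes tested). Tps1, the trehalose synthesis gene, had 3502 and 3856 in Gyc76C larvae, against 1772 and 1416 in GFP larvae (log2 fold change 1.21, limma adjusted p = 0.00338). Uggt, which adds glucose to misfolded glycoproteins, had 0.64, a call that ended when either Gyc76C array was left out (adjusted p = 0.155 for replicate 1 and 0.104 for replicate 2) and with a constant variance prior (0.0679).

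Transporters of the ABC family can carry conjugates out of cells. The list also holds organic anion transporters (Oatp genes), for which the direction of transport was not measured. Of 13 tested genes 4 rose (30.8%, against 11.6% of all genes tested) and 1 fell (7.69%, against 14%). Their median log2 fold change was 0.35. Oatp58Dc had 1182 and 1163 in Gyc76C larvae, against 399 and 460 in GFP larvae (log2 fold change 1.45, limma adjusted p = 0.00155). Mrp5 had a log2 fold change of 1.27 and MRP 1.10, and these 3 genes were called in all 12 alternative settings. Mdr50 fell by 0.59 on the log2 scale (limma adjusted p = 0.0415), a call that ended in 6 of 12 settings, including centred arrays (adjusted p = 0.102).

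Cytochrome P450 genes, which act a step earlier, went in both directions: of 68 tested 12 rose (17.6%) and 21 fell (30.9%). The shares of all genes tested were 11.6% and 14%. The median log2 fold change of the 68 was -0.05. The genes with the lowest log2 fold changes were Cyp4p2, at 43.6 and 19.8 in Gyc76C larvae against 465 and 490 in GFP larvae, Cyp6a2 at a log2 fold change of -3.22 and Cyp9c1 at -2.80. Cyp313a3, Cyp6a20 and Cyp49a1 were among those that rose most. Cyp49a1 rose 3.18-fold (log2 fold change 1.67), and Cyp313a3 and Cyp6a20, each with 1 GFP array under the filter level, rose at least 3.03-fold and 3.09-fold. Their calls ended without Gyc76C replicate 1 (adjusted p = 0.0524 for Cyp49a1, 0.0882 for Cyp313a3 and 0.1 for Cyp6a20). The Cyp49a1 call ended as well without Gyc76C replicate 2 (0.052) and with a constant variance prior (0.0724). The number of P450 genes that rose depended on single arrays. With a constant variance prior 9 rose and 17 fell, against 5.43% and 5.59% of all probe sets tested.

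Of 32 tested glutathione S-transferase genes 9 rose (28.1%) and 6 fell (18.8%), with a median log2 fold change of -0.08. Over all genes tested 11.6% rose and 14% fell. GstE10 at 1.65, GstE9 at 1.37 and GstD8 at 1.37 rose most, and GstD5 at -2.40, GstT3 at -1.19 and GstD6 at -1.06 fell most. The GstE10 call ended with a constant variance prior (adjusted p = 0.0637), and the GstD6 call ended in 7 settings, without Gyc76C replicate 1 among them (0.17). The number of glutathione S-transferase genes that rose also depended on single arrays. With a constant variance prior 4 rose and 3 fell, against 5.43% and 5.59% of all probe sets tested. Of 3 tested sulfotransferase genes St3 rose (log2 fold change 0.74, limma adjusted p = 0.0345), and its call ended when either Gyc76C array was left out (0.187 for replicate 1 and 0.0841 for replicate 2), without GFP replicate 2 (0.0605) and with a constant variance prior (0.087).

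**Figure D4:**
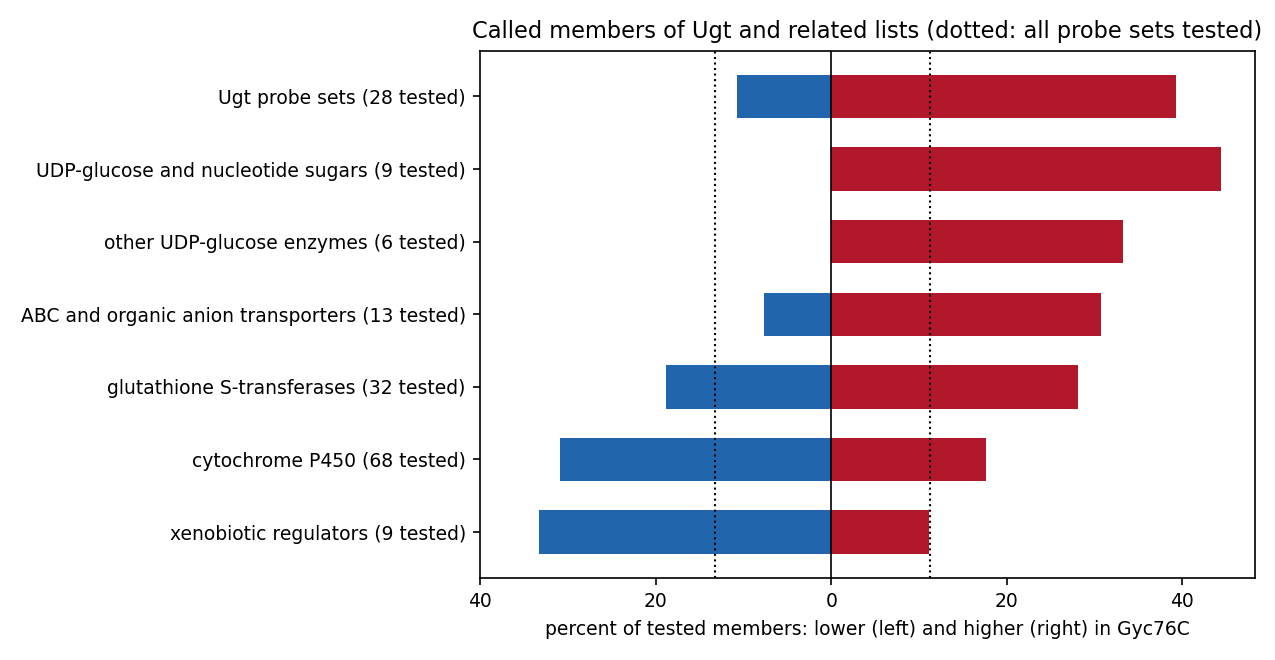
Percent of the tested members that were lower (blue, left) and higher (red, right) in Gyc76C larvae for the Ugt probe sets and 6 related gene lists, with dotted lines at the values for all probe sets tested (13.3% lower and 11.3% higher). The bars of the Ugt probe sets reach 39.3% higher and 10.7% lower, and those of the P450 genes 17.6% higher and 30.9% lower.

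Among 9 tested regulators of xenobiotic responses and nuclear receptors 1 rose (11.1%, against 11.6% of all genes tested) and 3 fell (33.3%, against 14%). Hr96, a nuclear receptor of xenobiotic and lipid responses, had 932 and 978 in Gyc76C larvae, against 551 and 525 in GFP larvae (log2 fold change 0.83, limma adjusted p = 0.00829). Its call ended when either Gyc76C array was left out (adjusted p = 0.0667 for replicate 1 and 0.0632 for replicate 2). The ecdysone receptor gene EcR had 127 and 137 in Gyc76C larvae, against 458 and 409 in GFP larvae (log2 fold change -1.71, limma adjusted p = 0.0021). The genes maf-S, a partner of the oxidative stress factor cnc, and foxo had -0.63 and -0.79. The maf-S call ended when Gyc76C replicate 1 (adjusted p = 0.166) or replicate 2 (0.0647) was left out and with a constant variance prior (0.0743), and the foxo call in 8 of 12 settings, centred arrays among them (0.0726). The gene cnc itself had -0.22 (adjusted p = 0.247) and Keap1, its inhibitor, -0.21 (0.587).

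Markers of the tissues that a larva holds moved as well, and their part in the Ugt changes was not tested. Over all 9259 genes tested 11.6% rose and 14% fell. Of 8 tested fat body markers 2 fell and 6 did not pass the threshold, and their summed signal, with 1 dimmer marker, was 93075 and 109863 in Gyc76C larvae, against 140028 and 137118 in GFP larvae. The storage protein receptor gene Fbp1 had a log2 fold change of -1.55, and Fbp2 had -0.48, a call that ended in 9 of 12 settings, with an adjusted p of 0.171 with centred arrays. The marker fit was under 46.3 on every array. Much of the gap between the sums came from Fbp1, at 10611 and 14728 in Gyc76C larvae, against 34606 and 38681 in GFP larvae. Of the 8 tested markers 5 had both Gyc76C arrays below both GFP arrays, against 41.4% of all probe sets tested. For 2, apolpp (log2 fold change 0.41) and Mtp (0.18), neither of them called, both lay above, against 26.9% of all. Of 8 Malpighian tubule markers 3 fell and 5 did not pass the threshold, with summed signals of 3597 and 3184 in Gyc76C larvae, against 10122 and 8219 in GFP larvae. Without LManVI the other 7 summed to 2845 and 2683 in Gyc76C larvae, against 3378 and 3370 in GFP larvae. LManVI had -3.22 and ZnT35C -0.78, and the ZnT35C call ended when Gyc76C replicate 1 or 2 was left out (adjusted p = 0.113 and 0.0605) and with a constant variance prior (0.0522).

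Of 12 midgut markers 5 rose and 1 fell. Their summed signals overlapped, at 155346 and 180210 in Gyc76C larvae and 173577 and 146174 in GFP larvae. The maltase genes Mal-A1 and Mal-A7 had log2 fold changes of 1.97 and 1.86, and the marker that fell, mag, had -1.49 (limma adjusted p = 0.00441). All 9 salivary gland markers fell, with summed signals of 22234 and 19164 in Gyc76C larvae, against 207307 and 191512 in GFP larvae. The sum came mostly from Sgs genes and does not measure the amount of gland tissue. The falls differed widely in size, from a log2 fold change of -6.56 for Sgs3 to -1.11 for sage. For sage the signals were 649 and 624 in Gyc76C larvae, against 1484 and 1264 in GFP larvae. Of 8 tested epidermis and cuticle markers 5 rose and 1 fell, with summed signals of 30713 and 34364 over 10 genes in Gyc76C larvae, against 10181 and 15459 in GFP larvae, while ple and resilin were under 46.3 on every array. Of 9 tested haemocyte markers 2 rose and 4 fell, with summed signals of 19343 and 18697 over 10 genes in Gyc76C larvae, against 16801 and 13377 in GFP larvae. Without the prophenoloxidase genes PPO1 and PPO2 the summed signal of the other 8 ran the opposite way. It was 3825 and 3971 in Gyc76C larvae, against 5735 and 5388 in GFP larvae. These 8 genes did not move together. The log2 fold change was -1.38 for crq and -0.99 for He, but 0.38 for NimC1, which was not called. Hml (0.02) and Pxn (-0.05) overlapped between the groups. Of 3 muscle markers 2 rose, with summed signals of 12130 and 10684 in Gyc76C larvae, against 7012 and 6157 in GFP larvae.

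Of 7 chemosensory organ markers 2 were bright enough to be tested, and 0 passed the threshold by limma or had an unadjusted p under 0.05. The odorant coreceptor gene Orco had 58.1 and 34.9 in Gyc76C larvae, against 24.4 and 63.2 in GFP larvae, and Ir8a, Ir25a, Ir76b and lush were under 46.3 on every array. Of 4 neuron markers 2 were tested and 0 passed the threshold by limma (1 had an unadjusted p under 0.05), with nSyb and para under 46.3 on every array and elav at a log2 fold change of -0.68 (limma adjusted p = 0.0995).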

How the data were processed

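Whole larvae of the third instar were measured on 1-colour Affymetrix arrays, with 2 for each genotype named in the titles. The submitters' processing notes name MAS5, with no version, as the tool behind the deposited table, which holds linear intensity values, 1 per probe set. MAS5 reports signal even where a probe set detects nothing. Detection calls were not used here, and low signals scatter widely once log-transformed. Of 18769 probe sets that are no controls, 13647 had 1 gene symbol in the platform annotation. All 35 Ugt symbols matched the RefSeq gene table of Release 6 by Entrez number, which was used for names and gene order only.

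Intensities were log2-transformed with no pseudocount. A probe set entered the fit when its mean over the 4 arrays reached the 40th percentile (46.3). The dimmest tested Ugt probe set had a mean of 53.8, and the brightest untested one 43.6. The Gyc76C and GFP arrays were compared in R 4.3.3 by limma 3.58.1, lmFit and eBayes with a mean trend, over all 11261 probe sets kept. Two-sided p-values received a Benjamini-Hochberg adjustment across all of these, with a threshold of 0.05. The fit was tested on simulated data. Precision is limited by the number of arrays. The p-values set the difference between the genotypes against the spread between these arrays, combined with the variance that limma shares across probe sets. Folds are ratios of geometric means; signals under 46.3 were raised to that level, and such folds are given as at least so much. The members and lists were chosen with earlier results of these data known, from general knowledge of fly biology. Every Ugt member is given. Of each related list up to 3 called genes in each direction are named by size of change, and of each marker list up to 2; other named genes were chosen after their values were seen. Alternatives were 2 other scalings, 2 filters, a floor, 2 variance models (a constant prior and a robust one), a replicate block and each array left out. Counts over probe sets bright in both genotypes, and marker sums without their brightest members, were chosen after seeing the data. Protein and promoter sequences were not used here.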

Additional observations from a re-analysis of the deposited data

How the results depend on the processing

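Of the 28 tested Ugt genes, Ugt35C1, Ugt37C1, Ugt37C2, Ugt37A3 and Ugt303A1 were called in all 12 alternatives, and Ugt303B3 in the 11 that tested it. With a constant variance prior 7 Ugt probe sets were higher and 1 lower. Leaving out 1 array at a time gave 6 to 11 higher and 3 to 4 lower, with the fewest when Gyc76C replicate 1 was left out. The Ugt median on the log2 scale was 0.36 with centred arrays, where the median of all probe sets tested was 0. The Ugt median was 0.40 after quantile normalization (-0.03 over all). With a filter at the 60th percentile, where 18 Ugt probe sets were tested, it was 0.31 (-0.11 over all). It was 0.14 to 0.30 with 1 array left out. The related lists held 64 calls as reported, against 40 with that prior and 38 to 72 with 1 array left out, the fewest without Gyc76C replicate 1. Among genes that did not pass the threshold, Ugt303B1 was 0.02 with centred arrays and 0.06 after quantile normalization, and Ugt304A1 was 0.06 in both. With 1 array left out Ugt302C1 ran from -0.40 to 0.08, Ugt303B1 from -0.31 to 0.04, Ugt304A1 from -0.21 to 0.00, Ugt316A1 from -0.37 to 0.03 and Ugt317A1 from -0.05 to 0.44. Centring moves the log2 fold change of every probe set by the same amount. The cause of the other shifts was not tested. The genotypes share replicate numbers, but same-numbered arrays did not deviate together (r = 0.04 over 11261 probe sets). With the replicate block 11 Ugt probe sets were higher and 4 lower, the added one being Ugt36D1 (limma adjusted p = 0.00289). Signals near 46.3 limit what can be said of the 7 untested genes.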

Other observations

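Genes that share the runs with Ugt genes were looked at by position, as the genes inside a run and the nearest 2 protein coding genes on each side. Inside the long run on chromosome arm 3R lie 3 genes of other families, of which 2 were tested. CG4757 had signals of 328 and 352 in Gyc76C larvae, against 28.2 and 30.2 in GFP larvae, which lay under the filter level. It rose in each of 12 alternative settings and was at least 7.34-fold higher in Gyc76C larvae (measured log2 fold change 3.54, SE 0.29, limma adjusted p = 0.00074). The aconitase gene mAcon2, between Ugt35C1 and Ugt302K1, had 51.9 and 97.8 in Gyc76C larvae, against 91.4 and 100 in GFP larvae, and did not pass the threshold (limma adjusted p = 0.481).

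Of 24 flanking genes of the 6 runs 15 were tested, of which 4 rose and 1 fell. Over all 9259 genes tested 11.6% rose and 14% fell. Gyg, the glycogenin gene beside Ugt49B1 and Ugt49C1, had 11223 and 12329 in Gyc76C larvae, against 5532 and 4195 in GFP larvae (log2 fold change 1.29, SE 0.17, limma adjusted p = 0.00374). Men, a malic enzyme gene beside the 2 Ugt37A genes that fell, had 7208 and 6604 in Gyc76C larvae, against 3295 and 2813 in GFP larvae (log2 fold change 1.18, SE 0.14, limma adjusted p = 0.00263). CG18577 and Cyt-b5-r had log2 fold changes of 1.07 and 1.03, and ScpX, beside the Ugt36 run, had -0.82. The calls of these 3 genes ended when either Gyc76C array was left out, with adjusted p of 0.0956 and 0.0549 for CG18577, 0.0934 and 0.102 for Cyt-b5-r, and 0.0628 and 0.0905 for ScpX. They ended as well with a constant variance prior (0.0681 for CG18577, 0.129 for Cyt-b5-r and 0.0864 for ScpX). The ScpX call also ended with centred arrays (0.0506), and the Cyt-b5-r call ended in 7 of 12 settings, quantile normalization (0.0731), no filter (0.0581) and a robust variance (0.0599) among them.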
